A study of Mus musculus with 2 samples.

Results

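Transcripts of 10 genes of fibroblast growth factor (FGF) signalling were followed through the states of sorted mouse hair follicle cells: the ligands Fgf5, Fgf18 and Fgf1, the receptors Fgfr1, Fgfr2 and Fgfr3, and the feedback inhibitors Spry1, Spry2, Spry4 and Dusp6. The members were found by gene symbol, and all 10 were present among the 31053 features of each count matrix. The 2 libraries form 1 group: wild type mice of strain C57BL/6;CD1 at postnatal day 32, whose follicles were in anagen, when the hair shaft grows. The K14 promoter drove the H2BGFP reporter of these mice, and skin cells had been sorted on that reporter and on CD34 before sequencing with the 10x Chromium 3′ v3 kit. The number of animals is not given, so every p-value measures only the spread between 2 libraries that may be technical replicates.

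FGF ligands are secreted proteins that bind receptor tyrosine kinases together with heparan sulfate, and the activated receptor signals through RAS and the kinases MEK and ERK. Sprouty proteins and the ERK phosphatase DUSP6 are induced by the pathway and dampen it, so their transcripts are widely used as readouts of it, although other receptors that feed ERK induce them too. In hair follicles FGF5 is known as a signal that ends anagen, with long hair in its absence, and FGF18 is known as a bulge signal that holds the resting phase.

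Barcodes were kept if they held 1000 genes or more and mitochondrial transcripts made up no more than 10% of their UMIs (unique molecular identifiers, each standing for 1 captured transcript), which left 3918 cells of 6592 barcodes in replicate 1 and 3041 of 5080 in replicate 2. After removal of called doublets 3704 and 2910 cells remained, with median depths of 9748 and 9596 UMIs. The libraries shared 11 barcodes, of which 3 were among the kept cells. Clusters were formed from one random part of the counts without any FGF gene, and all levels given here are UMI counts of the other part, scaled to the same total in each cluster and library (CPM). Clusters are named here by a leading gene. The non-cycling clusters were those led by Gnmt (1090 and 775 cells in replicates 1 and 2), Pthlh (997 and 372), the bulge keratin Krt24 (352 and 362), Fhl1 (207 and 297), the histone gene Hist1h2bc (287 and 169) and Cst6, a gene of the upper follicle (23 and 35). The cycling clusters were led by Wfdc18 (307 and 92) and Cenpf (258 and 136). Clusters in which many but not all cells cycled were led by Sms (36 and 561) and by the inner root sheath keratin Krt25 (69 and 54). Cells that were not keratinocytes fell in a Col3a1 cluster (69 and 43) and a Cd74 cluster with immune markers (9 and 14). In the Col3a1 cluster all 6 fibroblast and all 6 dermal papilla markers were at their highest, as were 4 of 6 markers of muscle and dermal sheath, 5 of 5 endothelial and 5 of 6 melanocyte markers.

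Against the bulge label, the Krt24 cluster carried the most markers: 14 of 14 bulge genes stood at 20 CPM or more there, and 7 of them were highest there. It held 9.50% and 12.4% of the kept cells. Cd34, the sorted surface marker, was at 96.9 and 315 CPM in the Krt24 cluster and at 0 in both libraries of the Cst6 cluster. The Gnmt cluster (139 and 120) and the Cenpf cluster (109 and 116) were above the Krt24 cluster in replicate 1 and below it in replicate 2. Cd34 was at 470 and 610 CPM in the Col3a1 cluster. Of the other bulge genes, Lgr5 was at 134 and 100 CPM in the Krt24 cluster and at 210 and 205 in the Cenpf cluster. Sox9 was at 913 and 486 CPM in the Krt24 cluster and at 1238 and 884 in the Pthlh cluster. The Sms cluster stands apart: 94.0% of its cells came from replicate 2, and its median depths of 15056.5 and 15521 UMIs were above those of every non-cycling cluster. Summed CPM of 10 genes known to respond to tissue dissociation, such as Fos and Jun, was 31033 and 27596 in the Hist1h2bc cluster and ranged from 7196 to 23012 in the other non-cycling clusters. In the Krt24 cluster that sum was 23012 in replicate 1 and 14619 in replicate 2.

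The stretch of 250 bases upstream of the RefSeq start (GRCm38.p6) is printed for Fgf5, Spry1 and Dusp6, which are 3 of the 4 members called higher in the Fhl1 cluster (the fourth is Spry4). The windows are chr5:98253934-98254183 for Fgf5, chr3:37639697-37639946 for Spry1 and chr10:99262981-99263230 for Dusp6, each on the plus strand and ending at the base before the annotated gene. The genes themselves lie at chr5:98254184-98277030 (Fgf5), chr3:37639947-37644598 (Spry1) and chr10:99263231-99267489 (Dusp6) in GRCm38. Capitals mark GGAA on either strand (GGAA or TTCC), the core that ETS transcription factors, which act downstream of ERK, bind.
Fgf5: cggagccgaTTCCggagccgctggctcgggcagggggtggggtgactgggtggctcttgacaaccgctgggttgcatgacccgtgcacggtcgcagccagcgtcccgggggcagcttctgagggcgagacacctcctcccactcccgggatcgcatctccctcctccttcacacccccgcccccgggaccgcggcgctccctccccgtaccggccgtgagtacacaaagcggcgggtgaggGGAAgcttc
Spry1: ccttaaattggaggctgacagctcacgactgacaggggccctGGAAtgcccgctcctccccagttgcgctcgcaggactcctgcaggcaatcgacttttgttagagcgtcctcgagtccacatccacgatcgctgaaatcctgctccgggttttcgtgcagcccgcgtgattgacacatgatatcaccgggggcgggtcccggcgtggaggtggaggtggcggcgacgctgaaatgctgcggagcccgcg
Dusp6: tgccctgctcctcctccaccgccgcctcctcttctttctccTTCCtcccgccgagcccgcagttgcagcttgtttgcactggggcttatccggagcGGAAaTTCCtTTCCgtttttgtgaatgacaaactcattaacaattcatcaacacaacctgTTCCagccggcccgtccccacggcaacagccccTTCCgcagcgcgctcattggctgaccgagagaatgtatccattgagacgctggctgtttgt
The Fgf5 window holds 2 such matches, the Spry1 window 1 and the Dusp6 window 6. Of all 32851 RefSeq windows of this length 93.4% hold at least 1, with a median of 3, so the Dusp6 window is above and the other two are below the usual number. The longer ETS form CCGGAAG (in 6.91% of all windows), TGANTCA (6.75%), TGACGTCA (1.55%) and TATAAA (12.4%), each searched on both strands, were not in the windows of the 7 members that the RefSeq table holds. GGAA is contained in CCGGAAG. A match is a stretch of letters and not a measured binding site.

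Fgf5 transcripts were most abundant in the Fhl1 cluster. Its level there was 241 CPM in replicate 1 and 267 in replicate 2 (253.8 ± 18.7, SD, n = 2 libraries). The Hist1h2bc cluster followed with 88.8 and 130 CPM, and the cycling Cenpf cluster with 68.0 and 93.1. No library of another cluster reached the lower Fhl1 value. The Krt25 cluster had 75.0 and 44.5 CPM and the Gnmt cluster 46.0 and 36.6. The cycling Wfdc18 cluster had 13.5 and 29.7 CPM and the Pthlh cluster 12.3 and 17.4. At the bottom, the Krt24 cluster had 2.16 and 0.661 CPM, the Sms cluster 0 and 0.210. The Cst6 cluster had no Fgf5 UMI in the tested part, which allows up to 19.6 and 9.96 CPM at its small depth.

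Between neighbours in this order, 3 of 9 steps passed the edgeR quasi-likelihood test. These were Fhl1 over Hist1h2bc by 1.19 ± 0.25 (log2 and SE; edgeR, Benjamini-Hochberg adjusted p = 0.00291), Gnmt over Wfdc18 by 1.35 ± 0.32 (edgeR adjusted p = 0.00275) and Pthlh over Krt24 by 3.1 ± 0.56 (edgeR adjusted p = 0.000166). Of all genes tested, 5.73%, 18% and 17.6% were called in these 3 pairs. The 3 steps divide the order into 4 stretches, within which no neighbouring pair was told apart by the test. Against the mean of the other non-cycling clusters Fgf5 in the Fhl1 cluster was higher by 5.33 ± 0.26 (edgeR adjusted p = 1.2e-14), a size that rests on how the Cst6 cluster at 0 is modelled. With levels under 3 counts set to 3 counts per library the difference was 3.82, and it was 3.74 with small clusters and those mostly of 1 library left out of the fit, among them Cst6 and Sms. With 1 library left out no fit was made, and the change was taken as a difference of mean log2 CPM. It was 4.45 without replicate 1 and 4.23 without replicate 2, with no test. These values are on another scale than the fitted one.

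The Fhl1 cluster held 32.4% of all Fgf5 UMIs of replicate 1 and 56.6% of those of replicate 2, from 5.59% and 10.2% of the kept cells. The Gnmt cluster, the largest, held a further 27.6% and 15.8%. Thinned to 5000 UMIs a cell, 65.7% (134 of 204; exact 95% Clopper-Pearson interval 58.7 to 72.2) and 72.2% (208 of 288; 66.7 to 77.3) of Fhl1 cells had an Fgf5 UMI, and 83.6% and 87.2% did so before thinning. In cells that were not keratinocytes 2 of 71 and 0 of 53 had one after thinning. Fgf5 was therefore detected in most cells of the Fhl1 cluster, at a share far above the level in cells not known to make it. These intervals and limits cover counting error only.

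**Figure D1:**
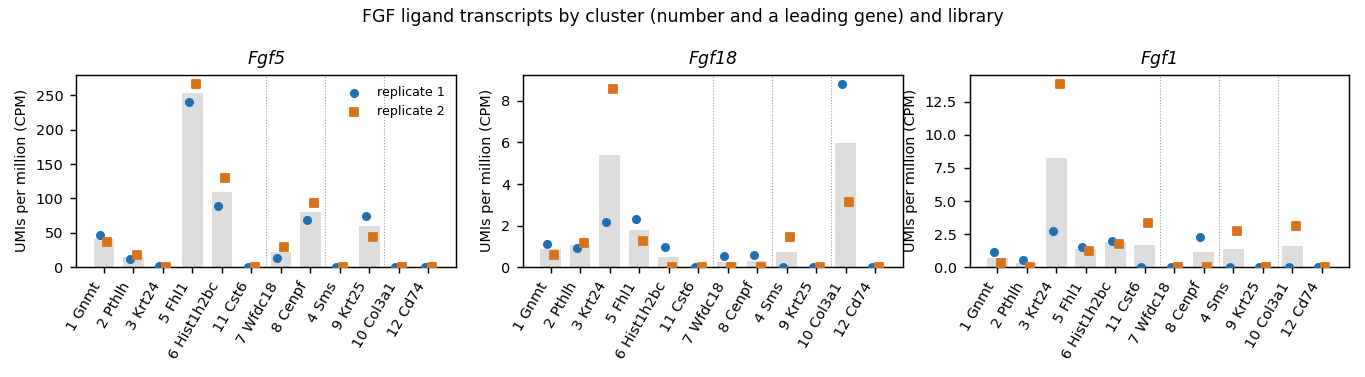
Levels of Fgf5, Fgf18 and Fgf1 in CPM (linear axes from 0) for each cluster, with circles for replicate 1, squares for replicate 2 and bars for their mean; dotted lines separate non-cycling, cycling, mixed and other clusters. Fgf5 peaks at 241 and 267 CPM in the Fhl1 cluster, while Fgf18 and Fgf1 stay under 14 CPM everywhere and are highest among keratinocytes in the Krt24 cluster.

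Fgf18, by contrast, was sparse, with 59 and 58 UMIs in all kept cells. Among keratinocytes its level was highest in the Krt24 cluster, at 2.16 CPM in replicate 1 and 8.59 in replicate 2. The lower of these is below the 2.34 CPM of replicate 1 in the Fhl1 cluster, so at this resolution the clusters overlap. Fgf18 did not pass the expression filter before the test. Without that filter its rise in the Krt24 cluster was 3.13 ± 0.88 (edgeR adjusted p = 0.00561), again with a cluster at 0 among those compared. In that setting the joint test over the non-cycling clusters did not call Fgf18. The Col3a1 cluster had 8.83 and 3.15 CPM from 4 and 1 tested UMIs.

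Fgf1, which can bind all FGF receptors, was as sparse, with 46 and 88 UMIs. The Krt24 cluster had 2.71 and 13.9 CPM and the Hist1h2bc cluster 1.97 and 1.78. Both libraries of the Krt24 cluster exceeded every keratinocyte value but those of replicate 2 in the Sms and Cst6 clusters (2.72 and 3.32 CPM). In replicate 2 the Krt24 cluster held 59.1% of Fgf1 UMIs, against 17.4% in replicate 1. Fgf1 too was below the filter. Without the filter its Krt24 rise was 2.74 ± 0.60 (edgeR adjusted p = 0.000123).

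A finer clustering (resolution 0.8, 15 clusters in the fit) divided the Krt24 cluster. Its 11th cluster, led by Tgm5, Calml3 and Krt24, held 66 and 272 cells, and its 12th, led by the natriuretic peptide gene Nppc, 242 and 50. Replicate 2 thus supplied most cells of the Tgm5 cluster and replicate 1 most cells of the Nppc cluster. Fgf18 stood at 13.2 and 11.8 CPM in the Tgm5 cluster and at 0 in both libraries of the Nppc cluster. Every other keratinocyte cluster was measured below 4 CPM in both libraries. Where the count was 0 the depth allows more: up to 12.3 CPM in replicate 2 of the Nppc cluster, up to 12.4 in replicate 1 of the Sms cluster, and up to 19.6 and 9.96 CPM in the small Cst6 cluster. The Tgm5 cluster is therefore not separated from these by its counts alone. No fold or test is given, since Fgf18 passed the filter through the Tgm5 cluster, where it was highest.

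The tested Fgf18 UMIs behind the Tgm5 level numbered only 4 and 13. In all UMIs, 7.58% (5 of 66; 2.51 to 16.8) and 6.99% (19 of 272; 4.26 to 10.7) of Tgm5 cells had one, against 2 of 242 and 0 of 50 Nppc cells. After thinning the Tgm5 shares were 3.13% and 4.02%, beside 2.78% (2 of 72) and 0 of 53 in cells that were not keratinocytes. So few cells cannot separate these shares, and cells that were not keratinocytes are no blank, since the Col3a1 cluster among them held Fgf18 UMIs. Over all keratinocytes, Tgm5 cells included and called doublets kept, the thinned shares were 0.466% (17 of 3646) and 1.07% (30 of 2794). Fgf1 was at 3.29 and 19.1 CPM in the Tgm5 cluster, and in replicate 1 the Nppc cluster, at 2.95 CPM, was close to it.

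For Fgf5 the finer clusters kept the same leader, the Fhl1 cluster, at 241 and 268 CPM. A Tagln cluster, which the coarser clustering had joined to the Gnmt cluster, had 109 and 107 CPM. The remaining parts of the Gnmt cluster had far less, with 17.7 and 4.44 CPM in the part led by Gnmt and 16.5 and 24.3 in the part led by Rgs2. The step from the Fhl1 to the Tagln cluster was 1.19 ± 0.24 (edgeR adjusted p = 0.00228), in a pair with 4.14% of all genes called. The Gnmt part differed from the Tagln cluster by -3.19 ± 0.34 and the Rgs2 part by -2.26 ± 0.30 (edgeR adjusted p = 8.38e-08 and 1.21e-05), in pairs with 7.26% and 5.44% of all genes called. Most Fgf5 of the coarser Gnmt cluster thus came from its Tagln part. Tagln, a gene of the contractile apparatus, also stood at 6156 and 6564 CPM in the coarser Fhl1 cluster, above its level in every other coarse cluster.

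**Figure D2:**
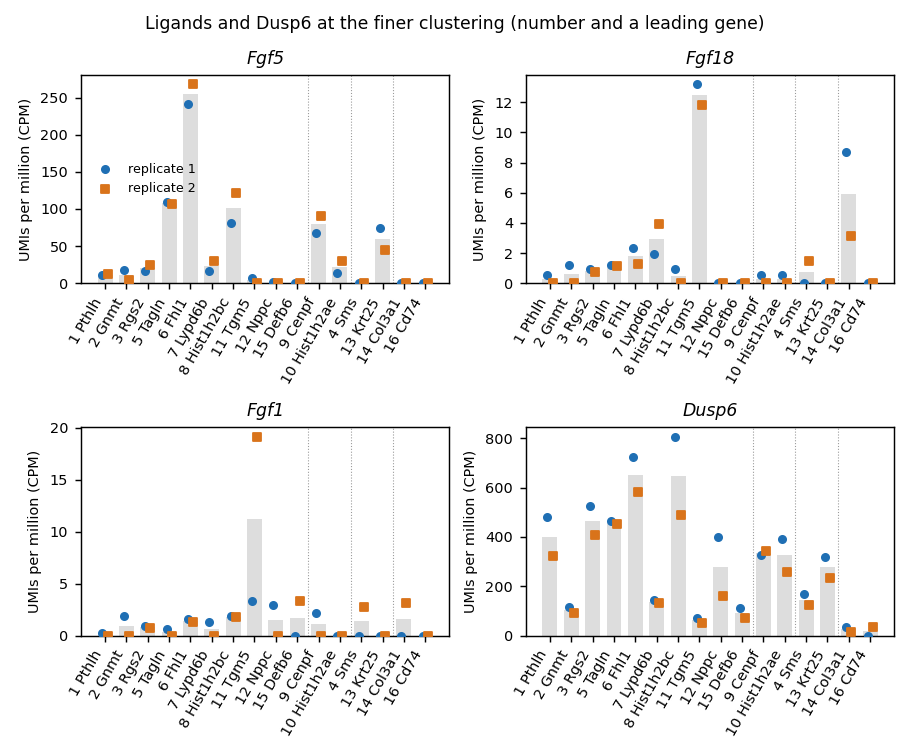
Levels in CPM (linear axes from 0) of Fgf5, Fgf18, Fgf1 and Dusp6 in each finer cluster, with circles for replicate 1, squares for replicate 2 and bars for their mean; dotted lines separate non-cycling, cycling, mixed and other clusters. Fgf18 reaches 13.2 and 11.8 CPM in the Tgm5 cluster, and Dusp6 differs widely between clusters that share a parent.

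Fgfr1, whose protein is the main FGF receptor of mesenchyme and is present in many epithelia, was highest among keratinocytes in the Krt24 cluster, at 141 and 85.9 CPM. The Hist1h2bc cluster had 102 and 103 CPM, the Gnmt cluster 90.0 and 101, and the Fhl1 cluster 79.4 and 75.3. These 4 clusters overlapped in part, and no step between neighbours among them passed the test. Levels were lower in the Pthlh cluster (47.0 and 34.9), the cycling Wfdc18 cluster (35.2 and 37.1), the Krt25 cluster (30.5 and 28.3) and the Cst6 cluster (32.6 and 23.2). The step from the Cenpf cluster (89.5 and 67.4 CPM) to the Wfdc18 cluster, 1.14 ± 0.24, was the only called one of 9 (edgeR adjusted p = 0.00195, with 7.42% of all genes called in that pair). That step parts the keratinocyte order of Fgfr1 into an upper and a lower stretch, and the Col3a1 cluster stood above both at 218 and 192 CPM.

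Fgfr1 was called higher in the Krt24 cluster (0.98 ± 0.16, edgeR adjusted p = 3.46e-05), the Hist1h2bc cluster (0.68 ± 0.18, 0.0156) and the Gnmt cluster (0.61 ± 0.16, 0.0103), and lower in the Pthlh cluster (-0.87 ± 0.18, 0.00083) and the Cst6 cluster (-1.55 ± 0.34, 0.00173). The Krt24 call was lost when cells needed at least 2000 genes (0.19, edgeR adjusted p = 0.586). In the finer clustering both the Tgm5 cluster (135 and 90.1 CPM) and the Nppc cluster (142 and 90.2) were called higher (0.72 ± 0.18 and 1.05 ± 0.17, edgeR adjusted p = 0.00157 and 1.98e-06), beside 11.9% and 15.7% of all genes.

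Fgfr2, whose epithelial splice form is the receptor for FGF7 and FGF10, was lowest where Fgf5 was highest. The Sms cluster had 134 and 172 CPM and the Krt24 cluster 113 and 97.8, a step that was not called (0.50 ± 0.23, edgeR adjusted p = 0.136). The Fhl1 cluster was lowest of all keratinocyte clusters, with 21.8 and 13.1 CPM, and did not overlap with any of them. The step up from it to the Hist1h2bc cluster (58.2 and 33.7 CPM) was 1.52 ± 0.32 (edgeR adjusted p = 0.00364). The cluster with the most Fgf5 thus had the least Fgfr2, -1.93 ± 0.25 against the other non-cycling clusters (edgeR adjusted p = 1.03e-06). The Krt24 cluster was higher by 1.39 ± 0.18 (7.82e-07). In the finer clusters the second Fgf5-high cluster, led by Tagln, was also low in Fgfr2, at 26.6 and 17.3 CPM (-1.37 ± 0.24, edgeR adjusted p = 3.1e-05, beside 6.32% of all genes called lower). Low Fgfr2 was not limited to Fgf5-high clusters. A Lypd6b part of the coarser Pthlh cluster had Fgfr2 at 29.4 and 31.5 CPM, with Fgf5 at only 16.6 and 29.5. Its Fgfr2 was not told apart from that of the Tagln cluster (0.36 ± 0.34, edgeR adjusted p = 0.634). The 3′ counts do not separate the splice forms of these receptors.

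Fgfr3, a receptor best known as a brake on bone growth and also made in skin keratinocytes, was on a plateau in 5 clusters. They were Hist1h2bc (114 and 107 CPM), Cenpf (110 and 94.3), Gnmt (105 and 79.5), Wfdc18 (102 and 122) and Pthlh (85.1 and 89.0). Their libraries overlapped and no step among them was called. The step down from Hist1h2bc to Fhl1 (63.1 and 44.2 CPM) was 1.11 ± 0.26 (edgeR adjusted p = 0.009), and the Krt24 cluster (44.9 and 59.5) was not told apart from Fhl1. The Sms cluster, at 19.2 and 19.1 CPM, was below the Krt25 cluster by 1.37 ± 0.35 (edgeR adjusted p = 0.0116, with 7.43% of all genes called in that pair), and the Cst6 cluster had 6.52 and 23.2 CPM. Fgfr3 was higher in the Hist1h2bc (1.05 ± 0.22, edgeR adjusted p = 0.00177), Gnmt (0.78 ± 0.19, 0.00766) and Pthlh clusters (0.63 ± 0.20, 0.0291) than in the mean of the others. The Pthlh call was lost without the Cst6 and Sms clusters (0.25, edgeR adjusted p = 0.266) and without the library term (0.64, edgeR adjusted p = 0.0973).

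Dusp6, the ERK phosphatase, was high in the 2 clusters with the most Fgf5. It stood at 722 and 578 CPM in the Fhl1 cluster and at 817 and 518 in the Hist1h2bc cluster. The Gnmt cluster had 394 and 305 CPM, the Pthlh cluster 386 and 267, the cycling Wfdc18 and Cenpf clusters 387 and 252 and 342 and 353. Both libraries of the Fhl1 and Hist1h2bc clusters were above all other values. The Krt24 cluster had 300 and 66.1 CPM, so its libraries differed widely, and the Cst6 cluster 111 and 69.7. In the finer clustering the Nppc part of the Krt24 cluster (242 and 50 cells) had Dusp6 at 399 and 160 CPM. Its Tgm5 part (66 and 272 cells) had 72.5 and 50.1 CPM. The libraries of the Krt24 cluster thus held different mixes of these parts, and the share of the mix in the gap was not tested. Against the other non-cycling clusters Dusp6 was higher in Fhl1 by 1.26 ± 0.25 (edgeR adjusted p = 0.0028) and in Hist1h2bc by 1.34 ± 0.25 (0.00493). It was lower in Krt24 (-0.92 ± 0.29, 0.0471) and in Cst6 (-2.09 ± 0.41, 0.00372). Among the finer non-cycling clusters Dusp6 was not called lower in the Nppc part, so the Krt24 call does not describe that part. No single step between neighbours was called. The dissociation sum was highest in Hist1h2bc as well (31033 and 27596 CPM) and was 13734 and 12168 in Fhl1, and its part in the Hist1h2bc values of Dusp6 and the Sprouty genes was not tested. Without the Cst6 and Sms clusters the Fhl1 difference was 0.87 (edgeR adjusted p = 0.101).

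Spry1, the Sprouty gene with the clearest pattern here, stood at 142 and 74.7 CPM in the Fhl1 cluster. The Hist1h2bc cluster had 71.0 and 47.9 CPM, the Gnmt cluster 58.1 and 35.2 and the Cenpf cluster 55.5 and 51.4. The lower Fhl1 library was above both libraries of each of these, but the step from Fhl1 to Hist1h2bc was not called (0.77 ± 0.25, edgeR adjusted p = 0.064), nor was any of the 9 steps in the order. In the finer clustering the Tagln cluster, at 122 and 77.2 CPM, was not told apart from the Fhl1 cluster, at 142 and 74.9 (0.05 ± 0.20, edgeR adjusted p = 0.981). Levels fell to 15.5 and 16.9 CPM in the Pthlh cluster, 20.6 and 9.91 in the Krt24 cluster and 7.67 and 11.7 in the Sms cluster. The Fhl1 rise was 1.77 ± 0.18 (edgeR adjusted p = 1.13e-08) and the Hist1h2bc rise 0.84 ± 0.23 (0.0152). The Pthlh cluster (-1.49 ± 0.23, 1.7e-05) and the Krt24 cluster (-1.40 ± 0.25, 0.000119) were lower.

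Spry4 was low but followed the same clusters, with 24.7 and 19.5 CPM in Hist1h2bc and 17.9 and 9.34 in Fhl1. No other keratinocyte library was above 11.1 CPM. Its edgeR adjusted p was 0.0016 in Hist1h2bc and 0.0387 in Fhl1, against other non-cycling clusters that include Cst6 at 0. With levels under 3 counts set to 3 counts per library the differences were 1.43 and 0.51. The fitted Hist1h2bc value of 2.89 ± 0.59 became 1.57 without the Cst6 and Sms clusters. As a difference of mean log2 CPM with no fit, it was 1.93 without replicate 1 and 1.96 without replicate 2. That scale is not comparable with the fitted value. The Hist1h2bc call was lost when FGF genes could form clusters (edgeR adjusted p = 0.0962) and at a limit of 5% mitochondrial UMIs (0.735). Spry2 lay between 14.2 and 61.7 CPM in all keratinocyte libraries and did not pass the joint test over non-cycling clusters (edgeR adjusted p = 0.331). It was at 115 and 75.5 CPM in the Col3a1 cluster.

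**Figure D3:**
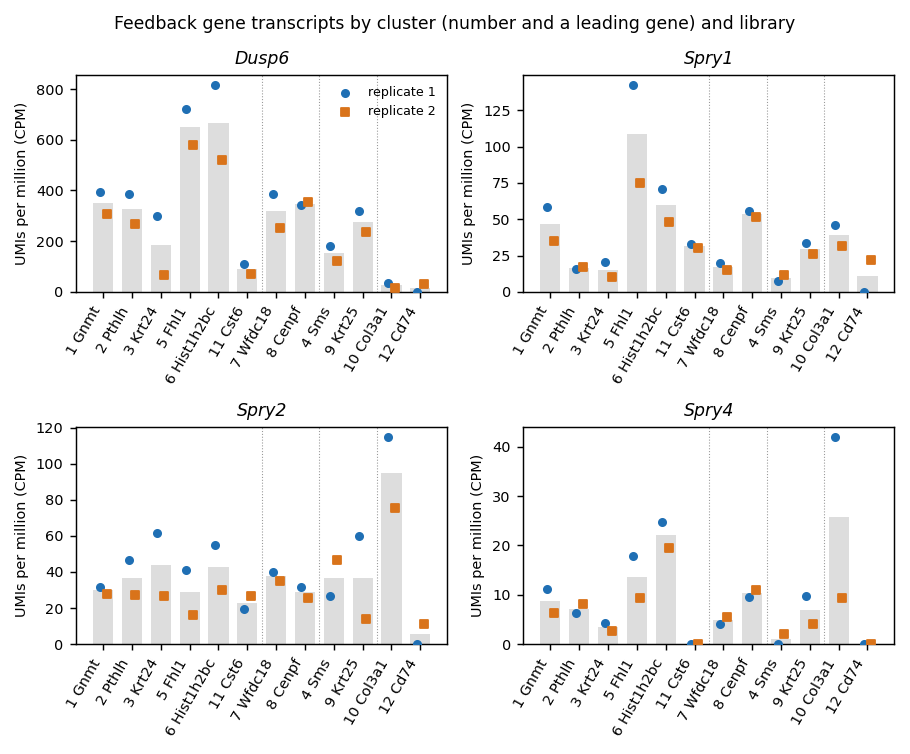
Levels of Dusp6, Spry1, Spry2 and Spry4 in CPM (linear axes from 0) for each cluster, with circles for replicate 1, squares for replicate 2 and bars for their mean; dotted lines separate non-cycling, cycling, mixed and other clusters. Dusp6 and Spry4 are highest among keratinocytes in the Hist1h2bc and Fhl1 clusters, Spry1 in the Fhl1 cluster (142 and 74.7 CPM), and Spry2 shows no such peak.

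Over all non-cycling clusters 7 of the 8 members that passed the filter were called in the joint edgeR test, beside 38.1% of the 10530 genes tested. Fgf18 and Fgf1 had not passed it. Calls in single clusters against the others numbered 6 of 8 members higher and 0 lower in Hist1h2bc (6.45% and 2.49% of all genes) and 4 higher and 1 lower in Fhl1 (10.3% and 7.43%). There were 2 higher and 2 lower in Krt24 (11.6% and 5.21%), 1 higher and 2 lower in Pthlh (7.83% and 4.79%), 3 higher and 0 lower in Gnmt (5.55% and 2.31%), and 0 higher and 4 lower in Cst6 (7.47% and 5.69%). Against the non-cycling clusters 1 member was higher and 3 were lower in the Sms cluster (12.4% and 8.72%), and 1 was higher and 1 lower in the Krt25 cluster (13.2% and 10.9%). The median change of the 8 members was 0.95 in Hist1h2bc, 0.70 in Fhl1, 0.53 in Gnmt, 0.13 in Pthlh, -0.14 in Krt24 and -1.80 in Cst6, beside 0.05, 0.03, 0.06, 0.03, 0.07 and -0.12 over all genes. With Fgf5 and Spry4 at the floor of 3 counts those medians became 0.95, 0.33, 0.37, -0.24, -0.53 and -0.82, which turns the sign for Pthlh.

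In the finer clusters 8 of the 8 members tested at both levels were called in the joint test, beside 55% of all genes. Feedback genes differed between parts of 1 coarser cluster. Dusp6 was at 72.5 and 50.1 CPM in the Tgm5 cluster and at 399 and 160 in the Nppc cluster, a difference of -2.34 ± 0.24 (edgeR adjusted p = 6.69e-10). The Gnmt part had 116 and 91.8 CPM and the Rgs2 part 526 and 406, also -2.34 ± 0.19 (2.09e-12). The Pthlh part had 482 and 321 CPM and a Lypd6b part of the coarser Pthlh cluster 144 and 132, a difference of 1.70 ± 0.20 (1.19e-08). Each pair differed without overlap between libraries. Spry2 moved the same way in these 3 pairs, by -1.09 ± 0.37, -1.64 ± 0.31 and 1.23 ± 0.32 (edgeR adjusted p = 0.0384, 0.000367 and 0.00697). Spry4 and Spry1 were called in 1 of the 3 pairs, between the Gnmt and Rgs2 parts, by -2.14 ± 0.55 and -0.99 ± 0.28 (0.00921 and 0.0207). The share of all genes called in these pairs was 14.2%, 6.06% and 10.1%. The pairs were chosen after the clusters had been seen.

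The summed dissociation genes moved with these differences. They were at 11079 and 11768 CPM in the Tgm5 cluster and at 27181 and 29755 in the Nppc cluster. The Gnmt part had 11362 and 14345 and the Rgs2 part 18024 and 17307, while the Lypd6b part had 7063 and 7746 and the Pthlh part 12757 and 15413. In all 3 pairs the part with more Dusp6 was also the part with more of these transcripts. Their part in the Dusp6 and Sprouty differences was not tested. The Fhl1 cluster had Dusp6 at 723 and 582 CPM in the finer clustering and a dissociation sum of 13601 and 12195, and the part of these transcripts there was not tested either.

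**Figure D4:**
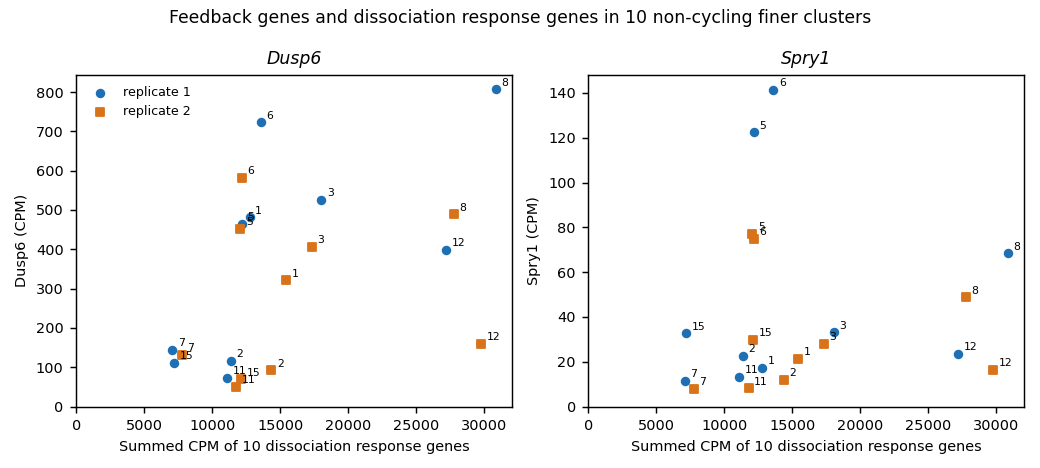
Dusp6 (left) and Spry1 (right) in CPM against the summed CPM of 10 dissociation response genes in the 10 non-cycling finer clusters, numbered beside the points, with circles for replicate 1 and squares for replicate 2 and linear axes from 0. Cluster 6, led by Fhl1, has Dusp6 at 723 and 582 CPM and a sum of 13601 and 12195. Cluster 12, led by Nppc, has Spry1 at 23.6 and 16.4 CPM and a sum of 27181 and 29755.

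Cycling cells were compared with their non-cycling neighbours to separate cycling from state. Against the mean of all non-cycling clusters, Fgf5 (1.62 ± 0.47, edgeR adjusted p = 0.0145) and Fgfr3 (0.67 ± 0.16, 0.00262) were higher and Fgfr1 was lower (-0.52 ± 0.15, 0.0116), beside 10.8% and 9.5% of all genes. The Fgf5 value was 0.22 (edgeR adjusted p = 0.529) without the Cst6 and Sms clusters and 0.51 (0.191) with called doublets kept. As a difference of mean log2 CPM with no fit, it was 1.30 without replicate 1 and 0.57 without replicate 2. That scale is not comparable with the fitted value. The Fgfr1 call was lost with library size as the only scaling (-0.36, edgeR adjusted p = 0.0896), and the Fgfr3 call when cells needed at least 2000 genes (0.34, edgeR adjusted p = 0.0775). By state, the Wfdc18 cluster was nearest to the Pthlh cluster (Pearson r of 0.618 across 1988 variable genes) and the Cenpf cluster to the Gnmt cluster (0.435). In these pairs 0 members were called by edgeR, beside 4.56% and 7.34% of all genes, with 2 at an unadjusted p under 0.05. DESeq2 also called 0, with 1 at an unadjusted p under 0.05. Fgf5 in the Cenpf cluster was above both libraries of the Gnmt cluster (0.72 ± 0.25, edgeR adjusted p = 0.0829). In the finer clustering the Cenpf cluster was nearest to the Tagln cluster (r of 0.503), and there the direction was the opposite, with Fgf5 at 67.8 and 90.8 CPM against 109 and 107 (-0.57 ± 0.26, edgeR adjusted p = 0.252). Neither difference was called.

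Of 90 further pathway genes 66 were tested and 41 were called (62.1%) in the same joint test, beside 38.1% of all genes. By role these were 1 of 4 other ligands, 1 of 1 other receptor, 14 of 21 carriers and heparan sulfate genes, 7 of 17 relay genes between receptor and ERK (41.2%, near the share of all genes), 7 of 9 other feedback inhibitors, and 11 of 14 ERK response genes. Higher and lower calls among the 66 were 15 and 7 in the Fhl1 cluster (beside 10.3% and 7.43% of all genes), 13 and 5 in Hist1h2bc (6.45% and 2.49%) and 9 and 1 in Gnmt (5.55% and 2.31%). They were 7 and 9 in Pthlh (7.83% and 4.79%), 7 and 7 in Krt24 (11.6% and 5.21%), and 5 and 14 in Cst6 (7.47% and 5.69%). Medians of the 66 changes ran from -0.54 in Cst6 to 0.17 in Hist1h2bc.

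Among carriers, Flrt2, a membrane protein that binds FGF receptors, stood at 509 and 517 CPM in the Fhl1 cluster, where it was higher by 4.02 ± 0.24. Fgfbp1, which releases FGFs from heparan sulfate, was at 581 and 779 CPM there and at 52.5 and 80.3 in the Pthlh cluster. Its changes were 1.5 ± 0.32 and -2.49 ± 0.43. Both were thus called higher in the cluster with the most Fgf5. Gpc6, a heparan sulfate proteoglycan, was at 34.6 and 35.7 CPM in the Krt24 cluster (3.73 ± 0.31), together with the sulfatase Sulf2 at 34.6 and 37.7 (1.93 ± 0.32). Flrt3 was highest in the Pthlh cluster at 552 and 469 CPM (1.22 ± 0.14). The heparan sulfate enzyme Hs2st1 was at 129 and 119 CPM in Hist1h2bc (1.30 ± 0.18).

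Among other feedback inhibitors, Rasa1, which switches RAS off, was at 346 and 359 CPM in Fhl1 (2.03 ± 0.16) and Spred1, a Sprouty relative, at 156 and 161 (1.15 ± 0.15). Dusp4, a nuclear ERK phosphatase, peaked instead in the Hist1h2bc cluster at 80.9 and 60.4 CPM (2.05 ± 0.25). Dusp7 was highest in Cst6 at 91.3 and 113 CPM (1.94 ± 0.31), as was Dusp5 at 111 and 93.0 (2.18 ± 0.49). Feedback genes therefore did not share 1 peak. Il17rd, an inhibitor at the membrane, was at 45.9 and 52.9 CPM in Fhl1 and at 0 in both libraries of Cst6.

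The ERK response gene Etv4, an ETS factor often used as an FGF readout, was at 89.3 and 87.8 CPM in Gnmt, 84.1 and 95.9 in Fhl1 and 90.7 and 124 in Hist1h2bc. It was at 10.8 and 3.30 CPM in Krt24 and at 20.8 and 27.3 in Pthlh. It rose by 2.12 ± 0.24, 2.02 ± 0.26 and 2.38 ± 0.27 in the first 3 and was lower in Krt24 (-2.08 ± 0.68). Its relative Etv5 was called in the same direction in all 4, by 1.13 ± 0.23, 1.16 ± 0.26, 0.99 ± 0.31 and -1.44 ± 0.37. Ccnd1, the cyclin that ERK signalling induces, peaked elsewhere, at 655 and 808 CPM in Pthlh (2.11 ± 0.14), and was lower in Fhl1 at 115 and 125 (-1.09 ± 0.18). Myc was also lower in Fhl1, at 20.2 and 10.6 CPM (-1.78 ± 0.27), as was Fosl1 at 7.01 and 5.60 (-2.79 ± 0.76). Fos, a dissociation gene as well, was at 9324 and 9656 CPM in Hist1h2bc (1.52 ± 0.21). The response genes thus differed in where they peaked.

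Among relay genes, Hras, a RAS gene, was at 695 and 648 CPM in Fhl1 (0.41 ± 0.12). Gab1, an adaptor at the receptor, was at 64.2 and 29.1 CPM in Pthlh (1.14 ± 0.23). Mapk3, which encodes ERK1, was at 92.0 and 83.9 CPM in Krt24 (0.62 ± 0.18) and at 35.5 and 49.7 in Hist1h2bc (-0.81 ± 0.23). Sos2 and Map2k1 were called in the joint test with edgeR adjusted p of 0.0147 and 0.0261. Of the other ligands Fgf21 alone was called, with 24.7 and 10.7 CPM in Hist1h2bc, and of the other receptors Fgfrl1, with 13.3 and 10.3 CPM in Gnmt and 10.3 and 11.9 in Krt24.

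The genes whose pattern over 20 keratinocyte sums (10 clusters in 2 libraries) was most like that of Fgf5 were Sct (Pearson r of 0.973 of log2 CPM + 1), Fads2 (0.955), Ddit4l (0.948), Serpini1 (0.943) and Tpm1 (0.938). Sct, which encodes the hormone secretin, was at 124 and 201 CPM in the Fhl1 cluster. Of the members, Spry4 (0.890), Dusp6 (0.851), Spry1 (0.745) and the receptor Fgfr3 (0.692) ran with Fgf5 and Fgfr2 ran against it (-0.720). Fgfr1 was at 0.211 and Spry2 at -0.00667. The sums share libraries and depth, so these are descriptions. For Fgf18 the nearest were Ltbp2 (0.820), Nog (0.795), Smarcd3 (0.795), Mitf (0.781) and Enpp2 (0.776), and they rest on few UMIs.

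Within the Fhl1 cluster, after thinning, an Fgfr1 UMI was found in 30.6% and 27.9% of cells with an Fgf5 UMI and in 30% and 26.3% of those without. Spry1 was found in 38.8% and 34.6% against 42.9% and 32.5%, and Dusp6 in 78.4% and 77.4% against 84.3% and 85.0%. In the Gnmt, Pthlh, Hist1h2bc and Cenpf clusters Spry1 and Dusp6 were found more often in cells with an Fgf5 UMI, in both libraries. Fgfr2 was found less often in such cells there. Some of these gaps were small or rest on few cells. In the Pthlh cluster Dusp6 was found in 69.6% against 67.7% in replicate 1. Spry1 was found there in 2 of 24 cells with an Fgf5 UMI in replicate 2. The Spry1 shares were 32.4% and 21.6% against 16.9% and 11.6% in the Gnmt cluster. They were 34.8% and 19.4% against 12.3% and 15.3% in the Cenpf cluster. These differences were not tested. The Gnmt cluster joined finer parts that differed in these genes. Its Tagln part, which held most of its Fgf5, had Spry1 at 122 and 77.2 CPM. Spry1 was at 22.6 and 11.9 CPM in the Gnmt part and at 33.1 and 28.1 in the Rgs2 part. In the same order Fgfr2 was at 26.6 and 17.3, 64.2 and 77.0, and 74.0 and 65.2 CPM. Dusp6 was at 464 and 453, 116 and 91.8, and 526 and 406 CPM. The part of this mix in the shares was not tested. At 1 UMI per gene and cell the shares cannot separate cells that make Fgf5 from cells that missed it.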

How the data were processed

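The series holds 2 single-cell libraries of 1 group. Per the submitters' processing notes the authors used Cell Ranger 3.1.0, Seurat 3.1 and the mm10 genome, and the deposited matrices hold raw UMI counts per gene and barcode. For the gene models, no name is given in the sources used here. The 10 members and all gene lists were chosen with earlier results of these data known.

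Scrublet's automatic threshold called 0 doublets, so the highest scores were called at 0.8% per 1000 barcodes (255 and 139 barcodes). Counts were split at random (probability 0.5, seed 1). The first part formed the clusters (scanpy 1.11.5: 2000 variable genes without FGF genes, 30 components, 20 neighbours, Leiden resolution 0.5) and the second was summed per cluster and library. Clusters with at least 20 cells in each library entered edgeR 4.0.16 (quasi-likelihood, TMM, cluster plus library, two-sided, Benjamini-Hochberg over all genes tested, threshold 0.05). The fit had 22 sums and 10 residual degrees of freedom, and the median depth of kept cells was 9748 and 9596 UMIs. Cycling clusters had over 95% of cells in each library with at least 3 cycling markers, and mixed clusters over 50% in either library. This class rule was revised after the clusters had been seen. All members are named, and of each pathway list up to 6 called genes with the widest range, except that 1 gene of that choice is not reported here. Clusters carry the name of their first leading gene, in 1 case of the second. Alternatives covered DESeq2 1.42.0, scaling, filters, clustering, doublets, thinning, a second split and left-out libraries. A limit for a count of 0 is 3 counts, and exact intervals are at 95%. The script was tested on simulated data.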

Additional observations from a re-analysis of the deposited data

How the results depend on the processing

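The joint test called 7 members, and 6 to 9 were called under the 13 alternatives run. The share of all genes called was 38.1% in the main setting and ran from 22.5% without the expression filter to 55% at resolution 0.8. Those 7 were called in all of them except at 5% mitochondrial UMIs, where Spry4 was not. Of 238 log2 changes of members recomputed, 198 kept their direction and, where there was a test, their side of the threshold. Changes with 1 library left out have no test, so they could only keep or lose their direction. The replicate block here is the library term: with only 1 group, the replicate numbers pair no groups, and with no replicate block 10 rather than 16 higher calls were made over the non-cycling clusters. Those 16 became 8 at 5% mitochondrial UMIs, 31 at resolution 0.8 and 8 without the small and library-specific clusters, and the 9 lower calls became 18 at resolution 0.8. These counts are not on 1 basis. The non-cycling clusters numbered 6 in the main setting and 4, 10 and 5 in these alternatives. At resolution 0.8, 9 rather than 8 members were tested. In cycling clusters the 2 higher calls became 1 with at least 2000 genes, with doublets kept and without small clusters. The 1 lower call became 2 at 5% mitochondrial UMIs and 0 with library size alone, at resolution 0.3 and with split seed 2. In the nearest pairs, carried over to the matching clusters of each alternative, the 0 calls became 2 with FGF genes allowed to form clusters, 3 at 5% mitochondrial UMIs, 1 with library size alone, 4 at resolution 0.8 and 1 with seed 2. At resolution 0.8 the Rgs2 cluster stood in for the Gnmt cluster, and against the clusters nearest at that resolution (Tagln and Pthlh) 2 members were called, Fgfr2 higher and Spry1 lower in the Cenpf cluster. Of the 5 genes most like Fgf5, 2 remained with Spearman's rho and 2 with a pseudocount of 5 CPM. For Fgf18, 1 and 3 remained. For calls in single comparisons under the alternatives no share of all genes is given here, so they describe the members alone. The cause of these shifts was not tested.

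Changes that turned direction were all in members not called, apart from Fgfr1. In cycling clusters Fgfr1 was 0.13 at resolution 0.3, and Spry1 was 0.50. Dusp6 (-0.00) was 0.033 with DESeq2, 0.081 with FGF genes allowed, 0.040 with all UMIs, 0.042 with doublets kept, 0.16 with library size alone, 0.024 without the filter, 0.22 and 0.29 at resolutions 0.3 and 0.8, and 0.39 with seed 2. Fgfr2 was 0.017 at 5% mitochondrial UMIs and Spry2 0.077 with doublets kept. Spry4 (0.49) was -0.038 with DESeq2, -0.27 with all UMIs, -0.014 with at least 2000 genes, -0.55 at 5% mitochondrial UMIs, -0.47 with doublets kept, -0.60 without small clusters and -0.19 with seed 2. Spry2 in its leading cluster (0.40) was -0.66 with FGF genes allowed, -0.10 at 5% mitochondrial UMIs, -0.022 at resolution 0.3 and -0.015 with seed 2. With 1 library left out the cycling change was a difference of mean log2 CPM with no fit. It ranged from -0.15 to 0.26 for Dusp6, from -0.25 to 0.07 for Spry2 and from -0.22 to 0.35 for Spry4. Depth limits Fgf18 and Fgf1, with 59 and 58 and with 46 and 88 UMIs in the libraries.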

Other observations

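The ligands Fgf7, Fgf10 and Fgf2, picked here after their values had been seen, were highest outside the non-cycling keratinocyte clusters, unlike Fgf21. Fgf7, a ligand of the epithelial FGFR2 form that dermal cells make, stood at 102 and 66.1 CPM in the Col3a1 cluster and reached at most 1.22 CPM in a keratinocyte library. Fgf10, a ligand of the same receptor form, was at 30.9 and 12.6 CPM there and had no UMI in the tested part of any keratinocyte cluster. Fgf2 was highest in the Krt25 cluster, at 30.5 and 18.2 CPM, against at most 8.56 CPM in the libraries of the non-cycling clusters. The Col3a1 cluster was not compared with keratinocytes by a test.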
